A study of Mus musculus with 48 samples.

Results

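The arterial muscle cell tightens and relaxes with the calcium concentration of its cytoplasm, and 10 genes of calcium entry, potassium outflow and the calcium store were followed here out of 18782 genes in the table. They were chosen by name: Cacna1c, Kcnma1, Kcnmb1, Kcnj8, Abcc9, Ryr2, Itpr1, Atp2a2, Pln and Casq2. RNA came from the thoracic aorta of 48 C57BL/6J mice, from lesioned segments where AAD had formed, with 1 library per mouse. Male (Ma) and female (Fe) Con mice drank normal water for 28 days, also starting at 3 weeks of age. NonAD and AAD mice of the same strain drank water with 0.4% BAPN for 28 days, starting at 3 weeks of age. BAPN blocks lysyl oxidase, whose cross-links hold collagen and elastin together. AAD mice had developed aortic aneurysm or dissection, and NonAD mice had not. The male groups had 10 MaCon, 4 MaNonAD and 7 MaAAD mice, and the female groups 10 FeCon, 8 FeNonAD and 9 FeAAD mice. NonAD and AAD were told apart by outcome among survivors, and mice that died of rupture are not among them.

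All 10 genes had counts in every library, and all 10 were among the 14431 genes that passed the filter on low counts. The scale throughout is CPM, which scales counts to a library's TMM-adjusted total. Library totals ran from 13548003 to 17281262 counts. Counts per library ran from 4797 to 15791 for Atp2a2, the most counted, and from 3 to 215 for Casq2, the least counted, so counting error weighs most on Casq2. The summed level of 12 smooth muscle markers was 14338 to 74423 CPM over the libraries. Differences are log2 fold changes from edgeR's quasi-likelihood test with an approximate SE, and a gene passed where its Benjamini-Hochberg adjusted p over all 14431 genes was under 0.05.

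Membrane depolarization opens the L-type calcium channel, whose pore is made by Cacna1c, and the calcium that enters drives contraction. Calcium released from the sarcoplasmic reticulum through the ryanodine receptor Ryr2 appears as local sparks, which open the large-conductance potassium channel BK, built from the pore Kcnma1 and the beta subunit Kcnmb1. Potassium then leaves the cell, the membrane hyperpolarizes and the artery relaxes. Itpr1 releases store calcium in response to vasoconstrictors. The pump SERCA2 (Atp2a2) refills the store under the brake of phospholamban (Pln), and calsequestrin 2 (Casq2) binds calcium inside it. Kcnj8 and Abcc9 form the vascular KATP channel, which is also a feature of pericytes.

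Promoter sequence was available for 8 of the 10 genes, from RefSeq on GRCm38.p6, and the 250 bases upstream of the start are shown for the pore and beta subunit of BK and for the pore and regulatory subunit of KATP, the partners whose ratios are compared further on. Capitals mark GC boxes, searched as GGGCGG and CCGCCC, so that both strands are covered, and overlapping matches are run together.
Kcnma1, chr14:24004206-24004455, minus strand: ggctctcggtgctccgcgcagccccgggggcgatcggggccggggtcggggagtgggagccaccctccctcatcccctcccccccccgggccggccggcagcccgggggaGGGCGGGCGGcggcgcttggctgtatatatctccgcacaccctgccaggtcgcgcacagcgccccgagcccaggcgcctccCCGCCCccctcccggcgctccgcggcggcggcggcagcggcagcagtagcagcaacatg
Kcnmb1, chr11:33962763-33963012, plus strand: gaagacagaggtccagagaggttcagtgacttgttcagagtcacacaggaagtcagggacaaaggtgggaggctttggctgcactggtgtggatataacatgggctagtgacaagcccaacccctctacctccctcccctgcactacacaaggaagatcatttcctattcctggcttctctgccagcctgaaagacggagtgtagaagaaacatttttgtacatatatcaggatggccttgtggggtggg
Kcnj8, chr6:142571615-142571864, minus strand: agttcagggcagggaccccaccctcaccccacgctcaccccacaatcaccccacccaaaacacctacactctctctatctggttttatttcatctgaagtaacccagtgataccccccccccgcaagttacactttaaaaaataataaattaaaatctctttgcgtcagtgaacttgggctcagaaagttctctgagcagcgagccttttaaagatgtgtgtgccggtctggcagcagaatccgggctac
Abcc9, chr6:142702275-142702524, minus strand: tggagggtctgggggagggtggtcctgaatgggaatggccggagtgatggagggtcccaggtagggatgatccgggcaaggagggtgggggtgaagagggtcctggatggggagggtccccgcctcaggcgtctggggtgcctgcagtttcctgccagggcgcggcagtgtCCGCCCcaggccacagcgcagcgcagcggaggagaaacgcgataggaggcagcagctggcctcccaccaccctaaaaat
The Kcnma1 window held 31 CpG dinucleotides and 79.2% G and C, while the Kcnmb1 window held 1 CpG and 50.8% G and C. Abcc9 had 12 CpG and a GC box, and Kcnj8 had 6 CpG and none. Over 32851 promoter windows of the same length the median was 6 CpG and 52.4% G and C, and 32.7% held a GC box. The CArG box, the letters read by serum response factor in many smooth muscle genes, was searched on both strands. Unlike the other counts, this search covered the whole stored promoter sequence, whose first 250 bases are the windows above. The CArG box stood in none of the stored sequences of these 8 genes and in 1.63% of all stored sequences. A missing match says only that the letters are not in the stored sequence.

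Before any comparison, 3 libraries stood apart. MaCon6, MaAAD7 and FeCon10 had a heart muscle score, the mean log2 CPM of 12 heart markers, of 4.10, 4.37 and 4.96, against at most 2.86 in the other 45 libraries. Their summed heart marker level was 388, 496 and 757 CPM, against 34.4 to 194 CPM elsewhere. Results for Pln, Casq2 and Abcc9 are therefore also given without these 3 libraries, a choice made after seeing the data.

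In AAD, 6 of the 10 genes fell in males and 7 in females, and none rose. Kcnma1, Kcnmb1, Abcc9, Ryr2, Itpr1 and Atp2a2 fell in both sexes, and Kcnj8 was the seventh in females. The falls were moderate, from -0.47 to -0.82 on the log2 scale in males and from -0.41 to -0.92 in females. Over all tested genes, 16.1% were lower and 18.9% higher in MaAAD than in MaCon, and 20.6% were lower and 23.8% higher in FeAAD than in FeCon. None of the 10 met the study's rule for differentially expressed genes, which also sets a minimum of 1 on the size of the log2 fold change and was met downward by 2.18% of all genes in males and 2.78% in females. The median log2 fold change of the 10 genes was -0.53 in males and -0.59 in females, beside -0.03 and 0.00 over all tested genes.

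The smooth muscle markers moved in the same direction. All 12 fell in each sex, with a median log2 fold change of -1.10 in males and -1.03 in females, among them Myh11 at -1.10 and -1.16 and Acta2 at -1.02 and -0.81. Their summed level ran from 33503 to 74423 CPM in MaCon and from 14338 to 34555 CPM in MaAAD, and from 36701 to 63491 CPM in FeCon and from 16218 to 37540 CPM in FeAAD. All 10 macrophage markers rose in each sex, by a median of 2.20 and 1.98, and their sum ran from 236 to 604 CPM in MaCon and from 938 to 4168 CPM in MaAAD, and from 286 to 679 CPM in FeCon and from 699 to 6150 CPM in FeAAD. With the mean log2 CPM of the smooth muscle markers as a covariate in edgeR, 0 of the 10 genes passed in males, where 1 had an unadjusted p under 0.05, and 1 passed in females, Kcnmb1, in the other direction at 0.49 (adjusted p = 0.0100). This covariate did not overlap between AAD and Con. It was at most 10.22 in MaAAD and at least 10.29 in MaCon, and at most 10.33 in FeAAD and at least 10.52 in FeCon. The adjusted AAD differences therefore reach beyond scores that both groups share. In bulk tissue, fewer muscle cells and less RNA per muscle cell cannot be told apart.

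**Figure D1:**
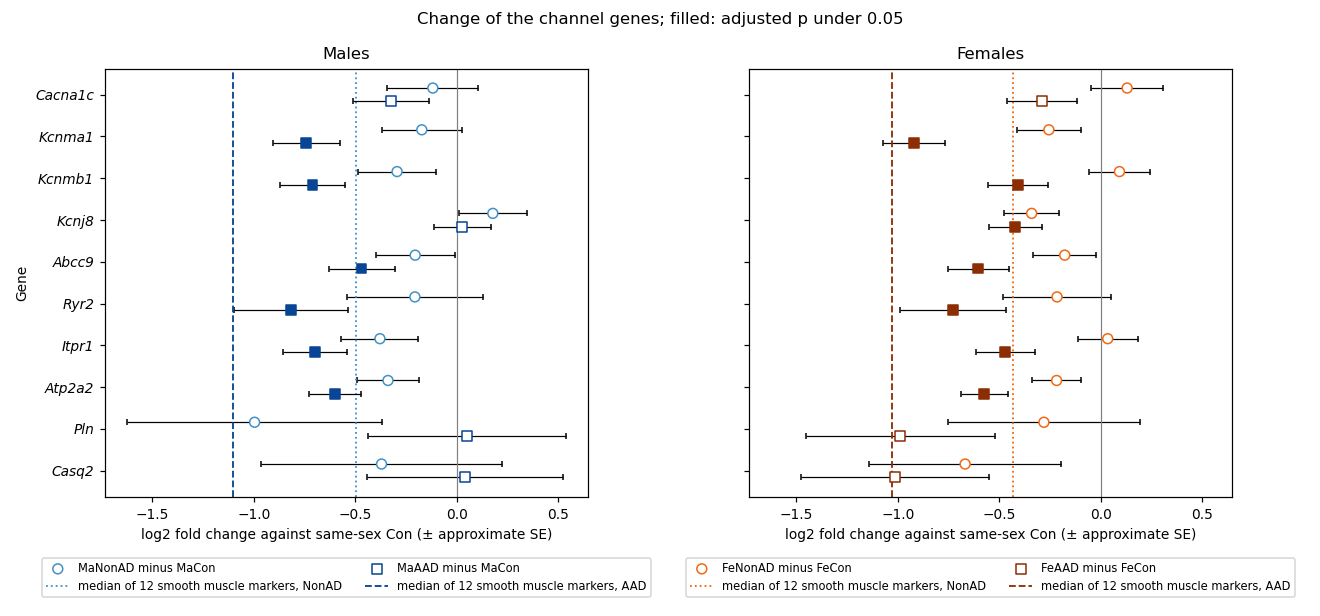
Log2 fold change of each of the 10 genes against same-sex Con (horizontal axis, bars are ± approximate SE), males left and females right, with circles for NonAD, squares for AAD and filled symbols where adjusted p was under 0.05. The AAD squares of the 6 genes that fell in both sexes lie left of 0 and right of the dashed line, the median of the 12 smooth muscle markers at -1.10 in males and -1.03 in females.

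Cacna1c, the pore of the L-type channel, did not pass in any comparison. In males its level was 85.8 ± 16.7 CPM in MaCon (SD, n = 10), where the lowest library had 59.2, the median was 88.0 and the highest had 109 CPM. The 4 MaNonAD mice had 99.9, 72.4, 48.0 and 96.1 CPM. In MaAAD it was 68.5 ± 19.3 CPM (SD, n = 7), from 32.3 to 86.7 with a median of 70.5. The 3 male groups overlapped, and 2 of 7 MaAAD libraries were below the lowest MaCon library. In FeCon Cacna1c was 100.1 ± 14.4 CPM (SD, n = 10), from 72.8 to 113 with a median of 107. FeNonAD had 109.5 ± 16.7 CPM (SD, n = 8), from 88.5 to 142 with a median of 109.7. FeAAD had 81.9 ± 28.5 CPM (SD, n = 9), from 25.4 to 118 with a median of 91.3, and here too the groups overlapped. The log2 fold change was -0.33 ± 0.19 (SE, adjusted p = 0.178) in MaAAD and -0.29 ± 0.17 (SE, adjusted p = 0.178) in FeAAD.

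Kcnma1, the pore of BK, fell in both sexes, and in females by more than any other of the genes that passed. Its level was 74.2 ± 9.29 CPM in FeCon (SD, n = 10), from 64.7 to 92.3 with a median of 73.2. FeNonAD lay between, at 62.2 ± 11.4 CPM (SD, n = 8) with a range of 46.8 to 79.0 and a median of 58.5, and 5 of 8 were below the lowest FeCon library. FeAAD had 39.2 ± 11.9 CPM (SD, n = 9), from 19.2 to 53.5 with a median of 39.3. All 9 FeAAD libraries were below the lowest FeCon library. Among the 10 genes no other AAD comparison with Con was free of overlap, and the share of all tested genes without overlap was not counted. The log2 fold change was -0.92 ± 0.15 (SE, adjusted p = 4.35e-06) against FeCon and -0.67 ± 0.16 (SE, adjusted p = 0.00263) against FeNonAD. In males, MaCon had 66.8 ± 11.6 CPM (SD, n = 10), from 50.7 to 88.9 with a median of 69.8. The MaNonAD mice had 61.1, 56.5, 49.4 and 70.1 CPM, 1 of them below the lowest control. MaAAD had 40.0 ± 13.7 CPM (SD, n = 7), from 20.7 to 55.6 with a median of 41.4, and 5 of 7 libraries were below the lowest control. The change in MaAAD was -0.74 ± 0.17 (SE, adjusted p = 4.11e-04).

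Kcnmb1, the beta subunit that makes BK more sensitive to calcium in smooth muscle, also fell in both sexes. MaCon had 342 ± 53.9 CPM (SD, n = 10), from 233 to 404 with a median of 348. The values in MaNonAD were 216, 283, 282 and 334 CPM. MaAAD had 209 ± 73.5 CPM (SD, n = 7), from 94.1 to 319 with a median of 221. All 7 MaAAD libraries lay under the MaCon mean and 4 under the lowest MaCon library, and the change was -0.71 ± 0.16 (SE, adjusted p = 4.72e-04). FeCon had 281 ± 43.6 CPM (SD, n = 10), from 218 to 333 with a median of 302. FeNonAD had 300.0 ± 50.8 CPM (SD, n = 8), from 233 to 385 with a median of 291. FeAAD had 212 ± 52.2 CPM (SD, n = 9), from 131 to 301 with a median of 218. No FeNonAD library was below the lowest FeCon library, and FeNonAD minus FeCon was 0.09 ± 0.15 (SE, adjusted p = 0.729). FeAAD differed from FeCon by -0.41 ± 0.15 (SE, adjusted p = 0.0226) and from FeNonAD by -0.50 ± 0.16 (SE, adjusted p = 0.0203).

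**Figure D2:**
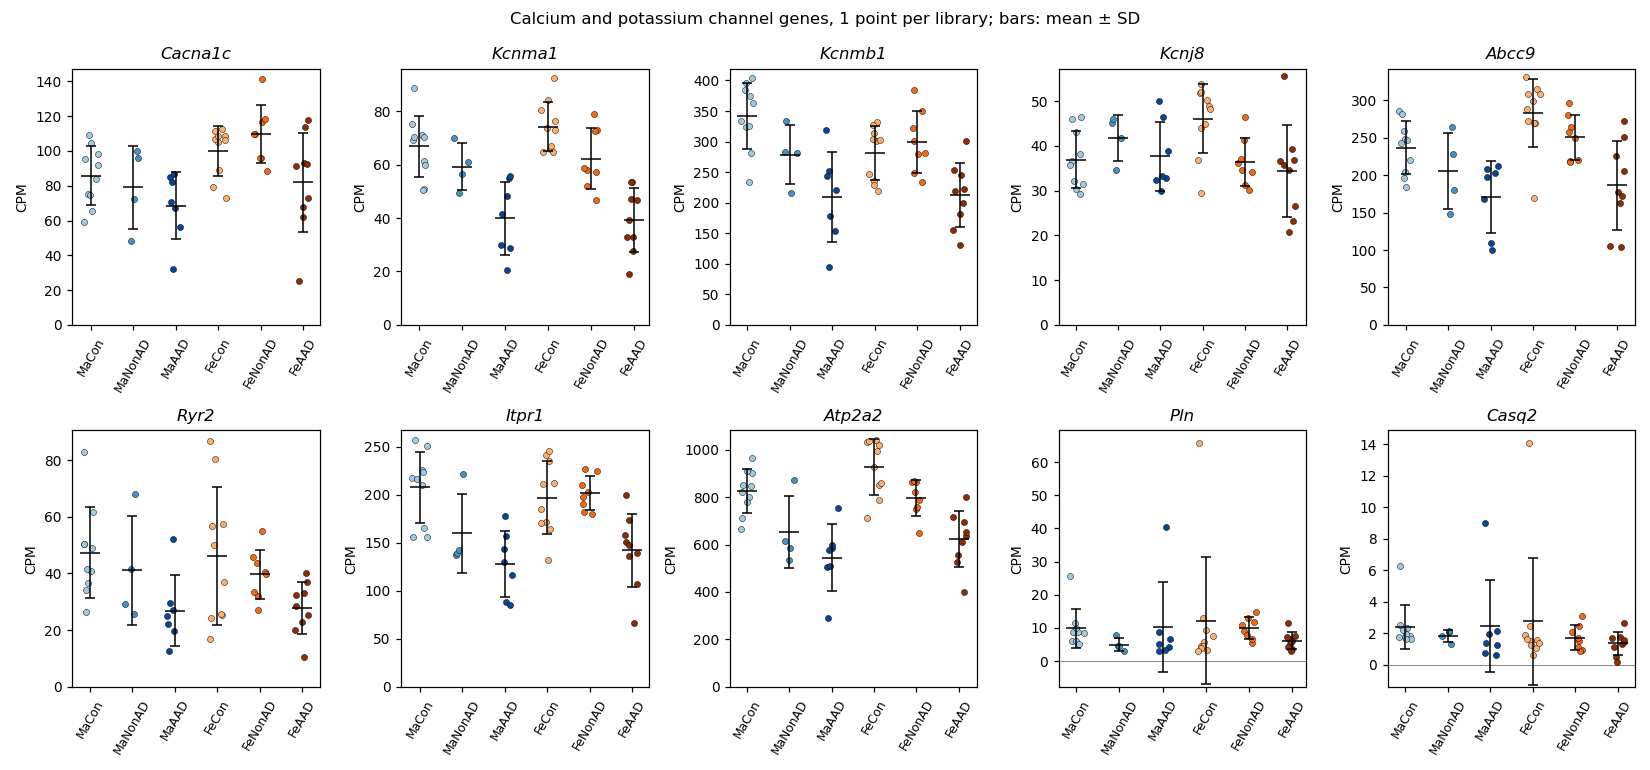
Level of each of the 10 genes in CPM (vertical axis, starting at 0 except for Pln and Casq2, where the SD reaches below 0), with 1 point per library in the 6 groups and bars for mean ± SD. Kcnma1 of all 9 FeAAD libraries lies below all 10 FeCon libraries, and single high libraries stand out for Pln and Casq2 in MaCon, MaAAD and FeCon.

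Because both subunits fell, their ratio within a library was compared, a measure that library size does not move. Kcnmb1 to Kcnma1 was 3.80 ± 0.65 in FeCon (SD, n = 10), with libraries from 2.79 to 5.10. It was 4.83 ± 0.52 in FeNonAD (SD, n = 8), from 4.12 to 5.90, and 5.54 ± 1.07 in FeAAD (SD, n = 9), from 4.23 to 7.59. The ratio was higher in both BAPN groups of females, although single libraries overlapped with controls. On the log2 scale the difference was 0.54 (p = 3.68e-04, adjusted p = 0.00662) for FeAAD and 0.36 (p = 0.00224, adjusted p = 0.0202) for FeNonAD, in two-sided exact permutation tests adjusted over 18 such comparisons. In males the ratio was 5.13 ± 0.68 in the 10 MaCon mice, 4.72 ± 0.89 in the 4 MaNonAD mice and 5.17 ± 0.61 in the 7 MaAAD mice (SD). The log2 difference between MaAAD and MaCon was 0.01 (p = 0.885, adjusted p = 0.885) by the exact test. Whether the response of the ratio differed between the sexes was not tested.

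**Figure D3:**
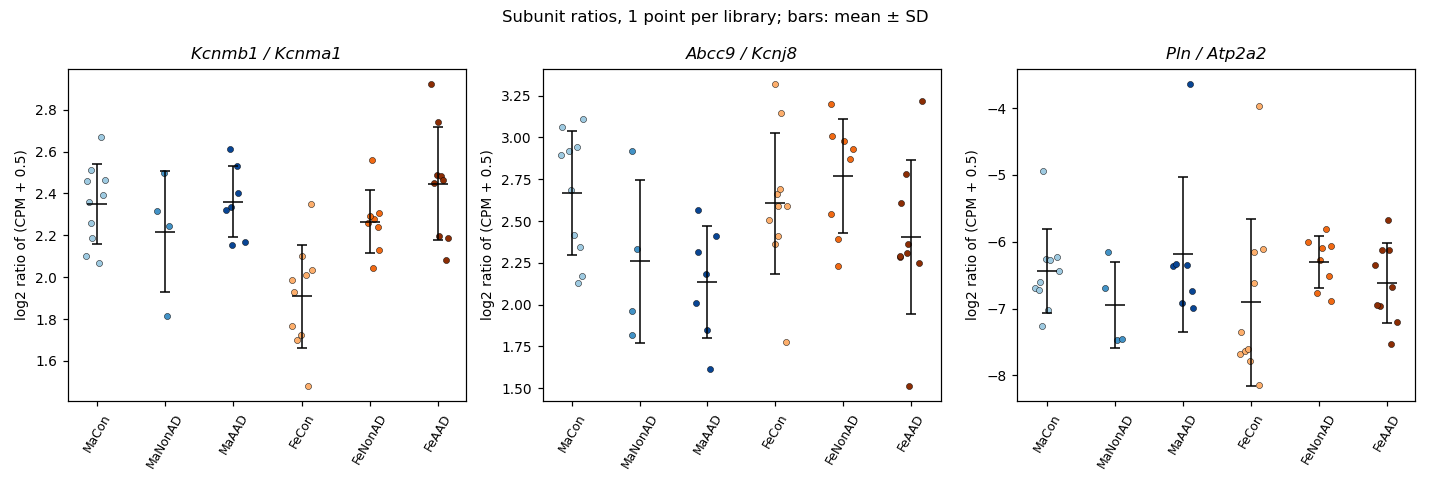
Log2 ratio of CPM + 0.5 within each library (vertical axis) for Kcnmb1 to Kcnma1, Abcc9 to Kcnj8 and Pln to Atp2a2, with 1 point per library in the 6 groups and bars for mean ± SD. In the left panel FeCon is the lowest group, with a mean of 1.91 beside 2.26 in FeNonAD and 2.45 in FeAAD.

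Abcc9, the regulatory subunit of KATP that binds nucleotides, fell in both sexes. It was 237 ± 34.8 CPM in MaCon (SD, n = 10), from 184 to 286 with a median of 245. The MaNonAD mice had 229, 149, 181 and 264 CPM. MaAAD had 171 ± 47.8 CPM (SD, n = 7), from 100.5 to 213 with a median of 197. All 7 were under the MaCon mean, 3 of them under the lowest control, and the log2 fold change was -0.47 ± 0.16 (SE, adjusted p = 0.0209). This call was lost without the 3 heart-rich libraries (-0.42, adjusted p = 0.0593) and without MaAAD1 and FeAAD5 (-0.36, adjusted p = 0.0568). That pair are the AAD libraries with the lowest smooth muscle score of each sex, and leaving them out was also chosen after seeing the data. In females Abcc9 was 283 ± 45.1 CPM in FeCon (SD, n = 10), from 169 to 331 with a median of 293. It was 250.5 ± 29.7 CPM in FeNonAD (SD, n = 8), from 218 to 296 with a median of 253, and 186 ± 59.0 CPM in FeAAD (SD, n = 9), from 103 to 272 with a median of 178. The 9 FeAAD libraries were all under the FeCon mean, at -0.60 ± 0.15 (SE, adjusted p = 0.00106), and the difference from FeNonAD was -0.43 ± 0.16 (SE, adjusted p = 0.0523). It passed without the 3 heart-rich libraries (adjusted p = 0.0467), with the heart muscle score as a covariate (adjusted p = 0.0446) and in DESeq2 (adjusted p = 0.0410), but not with only the compared groups in the fit or without MaAAD1 and FeAAD5.

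Kcnj8, the inward rectifier pore of KATP, passed in FeAAD against FeCon and in no other comparison. In MaCon its level was 37.0 ± 6.37 CPM (SD, n = 10), from 29.2 to 46.4 with a median of 36.3. The MaNonAD values were 45.0, 41.8, 46.0 and 34.5 CPM, and MaAAD had 37.7 ± 7.74 CPM (SD, n = 7), from 29.9 to 49.98 with a median of 33.4. No MaAAD or MaNonAD library was below the lowest MaCon library, and the MaAAD difference was 0.03 ± 0.14 (SE, adjusted p = 0.901). FeCon had 46.1 ± 7.66 CPM (SD, n = 10), from 29.4 to 53.9 with a median of 48.7. FeNonAD had 36.4 ± 5.35 CPM (SD, n = 8), from 30.1 to 46.4 with a median of 35.5. FeAAD had 34.4 ± 10.3 CPM (SD, n = 9), from 20.8 to 55.6 with a median of 35.8. Of the female BAPN mice, 7 of 8 FeNonAD and 8 of 9 FeAAD libraries lay under the FeCon mean, with differences of -0.34 ± 0.14 (SE, adjusted p = 0.0825) and -0.42 ± 0.13 (SE, adjusted p = 0.00781). The male response minus the female response was 0.45 in AAD (adjusted p = 0.234) and 0.52 in NonAD (adjusted p = 0.288), so a sex difference in the response was not shown.

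Within a library, Abcc9 to Kcnj8 was 6.54 ± 1.61 in the 10 MaCon mice, 5.01 ± 1.82 in the 4 MaNonAD mice and 4.49 ± 1.00 in the 7 MaAAD mice (SD). The MaAAD libraries ran from 3.07 to 5.92 and the MaCon libraries from 4.37 to 8.65. Their log2 difference was -0.53 (p = 0.0103, adjusted p = 0.0617) by the exact test, short of the threshold after adjustment. In females the ratio was 6.33 ± 1.86 in FeCon (SD, n = 10), 6.98 ± 1.55 in FeNonAD (SD, n = 8) and 5.53 ± 1.79 in FeAAD (SD, n = 9), and the difference between FeAAD and FeCon was -0.20 (p = 0.335, adjusted p = 0.478) by the exact test. Pericyte markers, which share this channel, did not move one way: 1 of 8 rose and 2 fell in MaAAD, and 0 rose and 2 fell in FeAAD under edgeR, where 4 of 8 had an unadjusted p under 0.05. Their summed level was 2166 to 3335 CPM in MaCon, 1605 to 2524 CPM in MaAAD, 2272 to 3223 CPM in FeCon and 1015 to 2882 CPM in FeAAD, and their part in the KATP result was not tested.

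Itpr1, the inositol trisphosphate receptor of the store, fell in both sexes. MaCon had 208 ± 36.9 CPM (SD, n = 10), from 156 to 258 with a median of 217. The 4 MaNonAD values were 137, 139, 142 and 221 CPM. MaAAD had 128 ± 34.5 CPM (SD, n = 7), from 84.9 to 178 with a median of 130.3. In MaNonAD, 3 mice stood below the lowest control and MaNonAD4 stood at control level, and 5 of 7 MaAAD libraries were below the lowest control. The change in MaAAD was -0.70 ± 0.16 (SE, adjusted p = 4.64e-04). FeCon had 197 ± 38.2 CPM (SD, n = 10), from 132 to 246 with a median of 198. FeNonAD had 202 ± 17.9 CPM (SD, n = 8), from 179.6 to 227 with a median of 200.4. FeAAD had 142 ± 38.3 CPM (SD, n = 9), from 66.0 to 199.8 with a median of 148. No FeNonAD library was below the lowest FeCon library, 2 of 9 FeAAD libraries were, and the differences were -0.47 ± 0.15 (SE, adjusted p = 0.00722) against FeCon and -0.51 ± 0.15 (SE, adjusted p = 0.0163) against FeNonAD.

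Ryr2, the ryanodine receptor behind calcium sparks, varied most among controls of the 6 genes that fell. MaCon had 47.4 ± 16.0 CPM (SD, n = 10), from 26.3 to 82.8 with a median of 45.3. The MaNonAD mice had 25.5, 29.3, 41.5 and 68.1 CPM. MaAAD had 26.9 ± 12.4 CPM (SD, n = 7), from 12.6 to 52.1 with a median of 25.1. The groups overlapped, 4 of 7 MaAAD libraries were below the lowest control, and the log2 fold change was -0.82 ± 0.28 (SE, adjusted p = 0.0203). FeCon had 46.0 ± 24.4 CPM (SD, n = 10), from 16.8 to 86.6 with a median of 43.6. FeNonAD had 39.6 ± 8.75 CPM (SD, n = 8), from 27.2 to 54.9 with a median of 40.2. FeAAD had 27.8 ± 9.15 CPM (SD, n = 9), from 10.6 to 40.2 with a median of 28.4. All 9 FeAAD libraries lay under the FeCon mean but only 1 under the lowest FeCon library, and the difference was -0.73 ± 0.26 (SE, adjusted p = 0.0199). With only the compared groups in the fit, the female call was lost (adjusted p = 0.0577). With the replicate number as a block, the Ryr2 call was lost in both sexes.

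Atp2a2, which encodes the SERCA2 pump, fell in both sexes. MaCon had 825 ± 92.0 CPM (SD, n = 10), from 664 to 966 with a median of 834. The MaNonAD mice had 536, 587, 616 and 873 CPM. MaAAD had 545 ± 139.7 CPM (SD, n = 7), from 289 to 753 with a median of 576. Of the 7 MaAAD libraries 6 were below the lowest control, as were 3 of the 4 MaNonAD libraries, and the log2 fold change in MaAAD was -0.60 ± 0.13 (SE, adjusted p = 1.99e-04). FeCon had 925 ± 118 CPM (SD, n = 10), from 709.8 to 1041 with a median of 959. FeNonAD had 796 ± 75.2 CPM (SD, n = 8), from 650.0 to 867 with a median of 805. FeAAD had 622 ± 117 CPM (SD, n = 9), from 401 to 802 with a median of 634. All 8 FeNonAD and all 9 FeAAD libraries lay under the FeCon mean, 1 and 7 of them under the lowest control. The change was -0.57 ± 0.12 (SE, adjusted p = 9.32e-05) against FeCon and -0.36 ± 0.12 (SE, adjusted p = 0.0369) against FeNonAD, and the latter was lost without MaAAD1 and FeAAD5 (adjusted p = 0.0528) and with only the compared groups in the fit (adjusted p = 0.0618).

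Pln and Casq2, which are far more abundant in heart than in vessel, passed in no comparison, and in 3 groups the mean was pulled up by 1 library. Pln was 9.92 ± 5.89 CPM in MaCon (SD, n = 10), from 5.08 to 25.7 in MaCon6, with a median of 8.74. The MaNonAD mice had 4.67, 7.77, 2.96 and 4.48 CPM. MaAAD had 10.3 ± 13.5 CPM (SD, n = 7), from 3.01 to 40.5 in MaAAD7, with a median of 5.09. FeCon had 12.1 ± 19.2 CPM (SD, n = 10), from 3.00 to 65.9 in FeCon10, with a median of 5.21. These are the 3 libraries with the highest heart muscle scores, and without them Pln was 8.17 ± 2.11 CPM in MaCon (SD, n = 9), 5.23 ± 2.18 CPM in MaAAD (SD, n = 6) and 6.14 ± 3.31 CPM in FeCon (SD, n = 9). FeNonAD had 10.0 ± 3.23 CPM (SD, n = 8), from 5.48 to 14.9 with a median of 10.1, and FeAAD had 6.12 ± 2.54 CPM (SD, n = 9), from 3.02 to 11.5 with a median of 5.94. The log2 fold change of Pln was 0.05 ± 0.49 (SE, adjusted p = 0.949) in MaAAD and -0.99 ± 0.47 (SE, adjusted p = 0.0808) in FeAAD. Without the 3 libraries it was -0.64 in MaAAD (adjusted p = 0.0987) and -0.01 in FeAAD (adjusted p = 0.981). With the heart muscle score as a covariate, Pln was higher in FeNonAD than in FeCon (0.97, adjusted p = 0.00694) and the male NonAD response minus the female one was -1.64 (adjusted p = 0.0442).

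Casq2 followed the same libraries. It was 2.39 ± 1.39 CPM in MaCon (SD, n = 10), with a median of 1.90 and 6.24 in MaCon6. MaAAD had 2.46 ± 2.93 CPM (SD, n = 7), with a median of 1.41 and 8.98 in MaAAD7, and the MaNonAD mice had 2.10, 1.85, 1.31 and 2.14 CPM. FeCon had 2.75 ± 4.02 CPM (SD, n = 10), with a median of 1.54 and 14.1 in FeCon10. Without the 3 libraries the means were 1.96 ± 0.32 in MaCon, 1.37 ± 0.62 in MaAAD and 1.49 ± 0.51 CPM in FeCon (SD). FeNonAD had 1.74 ± 0.78 CPM (SD, n = 8), from 0.89 to 3.10 with a median of 1.63, and FeAAD had 1.36 ± 0.72 CPM (SD, n = 9), from 0.18 to 2.65 with a median of 1.48. The log2 fold change was 0.04 ± 0.48 (SE, adjusted p = 0.960) in MaAAD and -1.01 ± 0.46 (SE, adjusted p = 0.0710) in FeAAD. Without the 3 libraries it was -0.52 (adjusted p = 0.250) and -0.13 (adjusted p = 0.747) in edgeR. Heart markers themselves were lower in FeAAD than in FeCon in 8 of 12 cases, with a median log2 fold change of -1.82, and 1 of 12, Actn2, was lower in MaAAD at -1.69. The heart marker median in MaAAD was 0.41, with 5 of 12 below 0 and values from -1.69 to 1.55. Both rest on the 3 heart-rich libraries: without them the median was -0.55 in FeAAD, where 4 of 12 were lower, and turned to -0.39 in MaAAD, where 2 of 12 were lower and 10 of 12 were below 0.

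**Figure D4:**
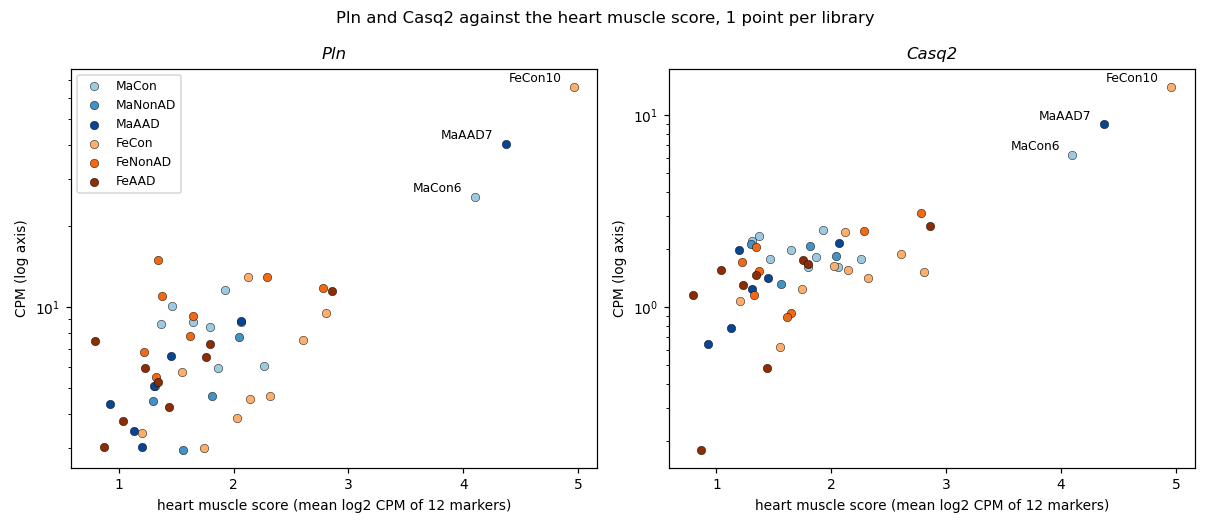
Pln (left) and Casq2 (right) in CPM on a log axis against the heart muscle score, the mean log2 CPM of 12 heart markers, with 1 point per library coloured by group. MaCon6, MaAAD7 and FeCon10 lie apart at the upper right, with scores of 4.10, 4.37 and 4.96 and Pln of 25.7, 40.5 and 65.9 CPM.

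Pln to Atp2a2, the ratio of the brake to the pump, differed in none of the 6 within-sex comparisons after adjustment. In log2 it was -6.44 ± 0.63 in MaCon and -6.19 ± 1.16 in MaAAD, and -6.90 ± 1.25 in FeCon, -6.30 ± 0.38 in FeNonAD and -6.62 ± 0.60 in FeAAD (SD). By exact permutation tests the difference was 0.60 (p = 0.219, adjusted p = 0.394) in FeNonAD and 0.25 (p = 0.583, adjusted p = 0.656) in MaAAD. Without FeCon10 alone the FeNonAD difference was 0.93 and passed (adjusted p = 0.0463 by the exact permutation test), and without all 3 heart-rich libraries it was 0.93 (adjusted p = 0.0513) and that in MaAAD -0.0049 (adjusted p = 0.965).

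Without dissection or aneurysm, none of the 10 genes passed against Con. In MaNonAD 9 of 10 log2 fold changes were negative, with a median of -0.25 beside -0.02 over all genes, edgeR and DESeq2 called 0, and 1 gene, Atp2a2, had an unadjusted p under 0.05, at -0.34 ± 0.15 (SE, adjusted p = 0.342). Of all genes 0.624% were called there, with 4 MaNonAD mice. In FeNonAD 7 of 10 were negative, with a median of -0.22 beside 0.00 over all genes, edgeR and DESeq2 again called 0, and Kcnj8 had an unadjusted p under 0.05. Without the 3 heart-rich libraries 5 of 10 were negative there, with a median of -0.08, and Pln and Casq2 turned to 0.70 and 0.21. Of all genes 14.5% were called. Of the 12 smooth muscle markers 11 were negative in each sex, with a median of -0.50 in MaNonAD, where edgeR called 0 and 6 had an unadjusted p under 0.05, and of -0.43 in FeNonAD, where 2 fell. The median of the 10 macrophage markers was 0.73 in MaNonAD and 0.42 in FeNonAD, with 0 called in edgeR and 6 and 2 at an unadjusted p under 0.05. The part of these markers in the NonAD values was not tested. With only the compared groups in the fit Kcnj8 passed in FeNonAD (adjusted p = 0.0472), and with the smooth muscle score as a covariate Kcnmb1 passed there, higher at 0.44 (adjusted p = 0.00151).

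Between NonAD and AAD, 4 genes fell in females, Kcnma1, Kcnmb1, Itpr1 and Atp2a2, and all 10 log2 fold changes were negative, with a median of -0.46. With Abcc9, 5 passed in DESeq2, with the heart muscle score as a covariate and without the 3 heart-rich libraries. Of all genes 5.00% were lower in this comparison. In the same comparison 9 of the 12 smooth muscle markers fell, with a median of -0.60, and all 10 macrophage markers rose, with a median of 1.56. In males 8 of 10 were negative, with a median of -0.26, edgeR and DESeq2 called 0, 2 genes had an unadjusted p under 0.05, and 0.409% of all genes were called by edgeR, while DESeq2 called 706 higher and 79 lower. The difference between the sexes in this step was 0.10 for Kcnma1, 0.08 for Kcnmb1, 0.19 for Itpr1 and 0.10 for Atp2a2, none of which passed.

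No sex difference passed in any of the 10 genes. In controls, MaCon minus FeCon was -0.32 ± 0.13 (SE, adjusted p = 0.0830) for Kcnj8, 0.28 ± 0.14 (SE, adjusted p = 0.186) for Kcnmb1 and -0.26 ± 0.15 (SE, adjusted p = 0.239) for Abcc9. With only these groups in the fit Kcnj8 passed (adjusted p = 0.0478), and with the smooth muscle score as a covariate Kcnmb1 did, higher in males at 0.32 (adjusted p = 0.00631). Of all genes 14.3% were called between controls, 0.0624% between NonAD groups and 0.0901% between AAD groups, where edgeR and DESeq2 called 0 of the 10 and 0 had an unadjusted p under 0.05. As a difference in response between the sexes, 0.416% of all genes were called for NonAD, 1.34% for AAD and 0.00% for the step from NonAD to AAD, where edgeR called 0 genes, 150 had an unadjusted p under 0.05 and DESeq2 called 1. In each of these, edgeR and DESeq2 called 0 of the 10 genes, and 1 of the 10 had an unadjusted p under 0.05. The AAD response of males minus that of females was 0.18 ± 0.22 (SE) for Kcnma1, -0.03 ± 0.17 for Atp2a2 and -0.09 ± 0.38 for Ryr2.

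The wider channel list held 68 other calcium and potassium handling genes, of which 58 were tested. In MaAAD 14 rose and 18 fell, which is 24.1% and 31.0% beside 18.9% and 16.1% of all genes, and in FeAAD 13 rose and 16 fell, 22.4% and 27.6% beside 23.8% and 20.6%. The share that rose in females was thus near that of all genes. The median log2 fold change was -0.32 and -0.07. In both sexes 12 fell, 66.7% of those that fell in males and 75.0% of those in females, where over all genes the shares were 61.4% and 48.1%. In both 10 rose, 71.4% and 76.9%, where over all genes the shares were 79.1% and 62.6%. The groups of the list that follow hold 2 to 19 tested genes, and their counts are descriptions to be read beside these shares of all genes.

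Of the voltage-gated calcium channel genes, 4 of 7 fell and 0 rose in MaAAD, and 3 fell and 1 rose in FeAAD. Cacna1g, the pore of a T-type channel, fell from 21.6 to 9.87 CPM in males (-1.13 ± 0.22 SE, adjusted p = 4.32e-05) and from 23.2 to 10.1 CPM in females (-1.21 ± 0.20 SE, adjusted p = 2.88e-06). Cacna1d, another L-type pore, fell to 18.3 from 31.3 CPM in males (-0.77 ± 0.16 SE, adjusted p = 1.68e-04) and to 19.5 from 30.5 CPM in females (-0.65 ± 0.15 SE, adjusted p = 4.00e-04). Cacnb1, a beta subunit of these channels, was 21.5 CPM in MaCon and 13.0 CPM in MaAAD (-0.72 ± 0.13 SE, adjusted p = 2.75e-05), and 18.2 CPM in FeCon and 13.7 CPM in FeAAD (-0.42 ± 0.12 SE, adjusted p = 0.00456).

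Of 11 voltage-gated potassium channel genes tested, 4 fell and 2 rose in MaAAD and 3 fell and 1 rose in FeAAD. Kcnab1, a beta subunit of Kv1 channels, fell by 1.14 in males and 0.72 in females on the log2 scale, and Kcna2, a Kv1 pore, by 0.89 and 0.78. Kcnab2, the related beta subunit, went the other way, from 3.37 to 13.7 CPM in males (2.02 ± 0.29 SE, adjusted p = 3.42e-07) and from 3.25 to 11.2 CPM in females (1.78 ± 0.27 SE, adjusted p = 9.99e-07).

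Of 7 other potassium channels tested, 4 rose in MaAAD and 3 in FeAAD, and 0 fell in either under edgeR. Kcnn4, the intermediate-conductance calcium-activated channel, rose from 6.26 to 11.9 CPM (0.93 ± 0.22 SE, adjusted p = 6.75e-04) in males and from 5.17 to 10.5 CPM (1.02 ± 0.21 SE, adjusted p = 7.49e-05) in females. Kcnk6, a two-pore-domain channel, rose by 0.74 and 0.68 on the log2 scale. Kcnj2, an inward rectifier, rose in males from 0.89 to 2.25 CPM (1.34 ± 0.31 SE, adjusted p = 5.83e-04) and was 0.52 ± 0.29 (SE, adjusted p = 0.144) in females. Kcnn4 and Kcnab2 are also expressed by leukocytes, and the 10 macrophage markers rose in the same comparisons, whose part in these rises was not tested. Kcnj11, the other KATP pore, was low and fell in FeAAD from 4.31 to 2.56 CPM (-0.75 ± 0.24 SE, adjusted p = 0.00938).

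Of 19 tested genes of store release, reuptake and entry, 6 rose and 7 fell in MaAAD and 5 rose and 5 fell in FeAAD, the latter 26.3% each way and near the shares of all genes. Orai2, a pore for store-operated entry, rose from 6.19 to 12.2 CPM in males (0.97 ± 0.18 SE, adjusted p = 3.31e-05) and from 5.59 to 12.1 CPM in females (1.11 ± 0.17 SE, adjusted p = 1.11e-06). Itpr3, a relative of Itpr1, rose in males at 0.79 ± 0.15 (SE, adjusted p = 4.14e-05), while in females it was 0.27 ± 0.14 (SE, adjusted p = 0.112). Atp2a3, which encodes the SERCA3 pump, fell in FeAAD at -0.73 ± 0.19 (SE, adjusted p = 0.00197) and was -0.38 ± 0.21 (SE, adjusted p = 0.153) in MaAAD. Calr, the store protein calreticulin, rose in FeAAD at 0.53 ± 0.14 (SE, adjusted p = 0.00152) and was 0.15 ± 0.15 (SE, adjusted p = 0.447) in MaAAD. Of the 3 extrusion genes, 1 rose and 0 fell in MaAAD and 1 rose and 1 fell in FeAAD. Atp2b1, a plasma membrane calcium pump, rose in males from 45.5 to 72.9 CPM (0.68 ± 0.14 SE, adjusted p = 9.45e-05) and in females from 47.5 to 71.9 CPM (0.60 ± 0.13 SE, adjusted p = 1.66e-04). Of 9 TRP, mechanosensitive and chloride channels tested, 1 rose and 3 fell in MaAAD and 2 rose and 3 fell in FeAAD, where 22.2% higher is near the share of all genes. Of the 2 tested partners of BK and KATP none passed in MaAAD, where 0 had an unadjusted p under 0.05.

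**Figure D5:**
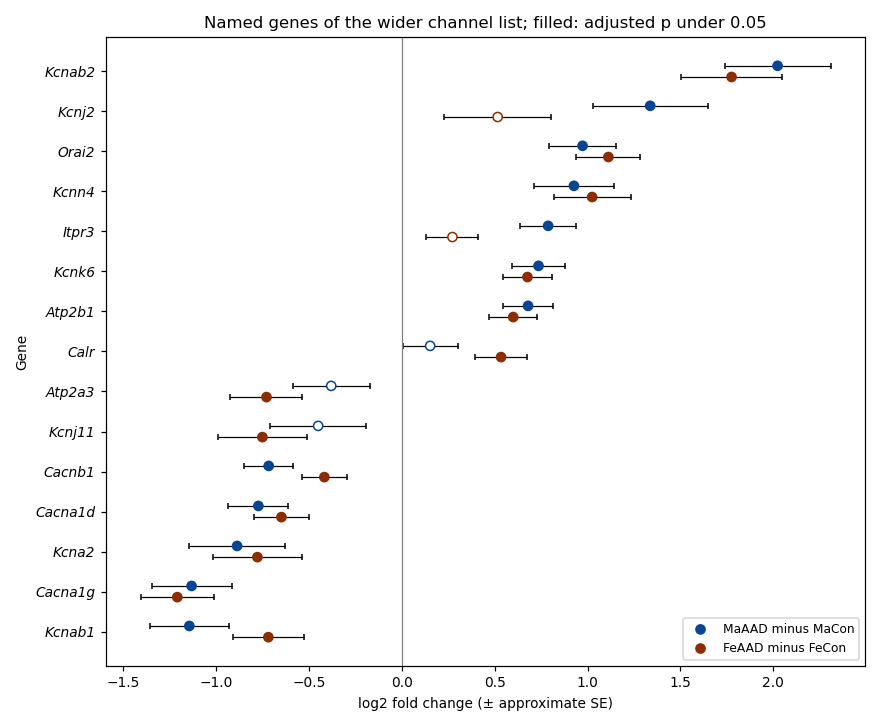
Log2 fold change (horizontal axis, bars are ± approximate SE) in MaAAD minus MaCon and FeAAD minus FeCon of the named genes of the wider list, with filled points where adjusted p was under 0.05. Cacna1g, Kcnab1 and Kcna2 lie left of 0 and Kcnab2, Orai2, Kcnn4 and Kcnk6 right of 0 in both sexes.

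Set per kilobase of the longest annotated transcript in the 20 controls, levels ran from Atp2a2 at 195 ± 25.6 CPM per kilobase (SD, n = 20) to Casq2 at 1.01 ± 1.15. Kcnmb1 followed Atp2a2 at 74.3 ± 13.6, then Abcc9 at 34.7 ± 6.10, Itpr1 at 20.5 ± 3.74 and Kcnj8 at 16.3 ± 3.26. Itpr1 and Kcnj8 did not differ beyond their spread. Cacna1c at 7.06 ± 1.28, Kcnma1 at 5.83 ± 0.90 and Pln at 4.72 ± 5.93 also overlapped, although without MaCon6 and FeCon10 Pln was at 3.07 ± 1.24 (SD, n = 18), with an SD range below those of the other two, and Ryr2 stood at 2.78 ± 1.19. The BK beta subunit was thus far above its pore and Abcc9 above Kcnj8 on this scale. The order rests on the length used: per coding length Kcnmb1 came first at 544 ± 99.3 and Pln stood at 70.6 ± 88.7 beside Abcc9 at 56.1 ± 9.87, an order that turned without MaCon6 and FeCon10 (45.9 ± 18.5 and 56.6 ± 9.52, SD, n = 18), and per median transcript Itpr1 came first at 251 ± 45.8, because its median annotated transcript has only 807 bases.

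Libraries of a group also differed together. After each group's mean was taken off, log2 CPM over 48 libraries correlated at r = 0.87 between Abcc9 and Itpr1, 0.84 between Pln and Casq2, 0.82 between Kcnmb1 and Atp2a2 and 0.79 between the BK subunits Kcnma1 and Kcnmb1. Without the 3 heart-rich libraries r was 0.86, 0.55, 0.83 and 0.79 over 45. Kcnj8 was at 0.20 with its KATP partner Abcc9 and at most 0.28 with any of the 10, and Pln and Casq2 were at -0.15 to 0.16 with the genes other than each other, or at -0.04 to 0.34 without the 3 heart-rich libraries. The values are descriptive, and the points share library, tissue piece and cell makeup. MaAAD1 was lowest of its group for 7 of the 10 genes and FeAAD5 for 7, while FeAAD3 was highest of FeAAD for 7 and MaNonAD4 highest of MaNonAD for 7. Leaving out MaAAD1 and FeAAD5 left 5 genes lower in MaAAD and 7 in FeAAD.

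By the same measure, the tested genes most like each of the 10 included Syne2, Agrn and Hmbox1 for Cacna1c (r of 0.880 at most), Pgm5, Plcb4 and Atp2b4 for Kcnma1 (0.920) and Tspan2 and Dstn for Kcnmb1 (0.915). For Abcc9 they were Cped1, Setd7 and Nek9 (0.907), for Itpr1 Zfp704, Kidins220 and Utrn (0.931), for Atp2a2 Clic4, Msrb3 and Npnt (0.886) and for Ryr2 Nav2, Maml1 and Anks1 (0.862). Kcnj8 had no close match, with Agtrap, Rnd2 and Zbtb22 at 0.677 or less. Pln and Casq2 were most like the heart muscle gene Ttn, at 0.873 for Pln and 0.853 for Casq2.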

How the data were processed

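RNA-seq of the thoracic aorta of 48 mice in 6 groups was used, with 1 library per mouse and groups taken from the labels. RNA was extracted with a column kit, and strand-specific mRNA libraries were sequenced on a DNA NanoBall platform. The authors deposited expected counts per gene, not scaled to library size, and the submitters' processing notes name Bowtie2, RSEM 1.3.1 and GRCm39. Of the values 4.99% were not whole and all were rounded, which changed no library total by more than 24.1 counts. The counts of the 10 genes were whole in every library. The design had spoken of raw counts.

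R 4.3.3 and edgeR 4.0.16 were used for the robust quasi-likelihood test, after filterByExpr and TMM normalization, with 1 mean per group over all 48 libraries and Benjamini-Hochberg adjustment over 14431 genes. TMM factors ran from 0.87 to 1.08, and library totals had a median of 15681333.5. SEs are approximate, from the fold change and the F statistic. There were 9 pairwise comparisons and 3 interactions of sex with response. Subunit ratios used CPM plus 0.5 and two-sided exact permutation tests over libraries, adjusted over 18. Replicate numbers come from the sample titles, where nothing says that they mark a shared litter or day, and correlations of same-numbered libraries averaged -0.06 to 0.16 per comparison, so no block was used. Fits were tested on simulated data.

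Alternatives were DESeq2 1.42.0, its size factors in edgeR, no filter on low counts, the replicate block, only the compared groups, the study's call rule, leaving out libraries, other pseudocounts, and marker scores as covariates. The 10 genes, gene lists and tests were chosen with earlier results of these data known. Of the wider list, genes averaging at least 10 counts were named, the 6 largest rises and 6 largest falls of each AAD comparison with Con that passed, and for each of the 10 genes the 3 most similar genes. A few of the genes so chosen are not reported here. Lengths are from GENCODE M21 by symbol, and promoters from RefSeq on GRCm38.p6. No molecular identifiers were used in counting. Calculations used Python 3.11.15, numpy 2.4.6, pandas 2.3.3, scipy 1.17.1 and matplotlib 3.10.9.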

Additional observations from a re-analysis of the deposited data

Results flagged for a closer look

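Over the 60 combinations of gene and group, 10 values, from 7 libraries, stood apart from the rest of their group by Dixon's test, where chance gives about 1 in 20. Of these, 6 were high values of Pln and Casq2 in the same 3 libraries: Pln was 25.7 CPM in MaCon6, 40.5 CPM in MaAAD7 and 65.9 CPM in FeCon10, and Casq2 was 6.24 CPM, 8.98 CPM and 14.1 CPM in these libraries. Their heart muscle scores of 4.10, 4.37 and 4.96 are the highest of all. Low values were Cacna1c at 25.4 CPM in FeAAD5, Abcc9 at 169 CPM in FeCon3 and Atp2a2 at 289 CPM in MaAAD1. MaAAD1 and FeAAD5 have the lowest smooth muscle score of AAD in their sex. Itpr1 was high in MaNonAD4, at 221 CPM.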

How the results depend on the processing

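The counts of 6 genes lower in MaAAD and 7 in FeAAD were 6 and 7 with DESeq2, with its size factors and without a filter, 6 and 6 with only the compared groups, and 5 and 7 without MaCon6, MaAAD7 and FeCon10 or without MaAAD1 and FeAAD5. Under the smooth muscle score as a covariate 0 genes passed in MaAAD and 1 in FeAAD, Kcnmb1, which was higher and not lower. With this covariate 0 passed in FeAAD against FeNonAD, 1 in FeNonAD and 1 in MaCon against FeCon. The log2 fold change then turned to 0.14 for Cacna1c, 0.10 for Kcnma1, 0.14 for Kcnmb1, 0.10 for Ryr2 and -0.55 for Casq2 in MaAAD, to 0.20 for Cacna1c, 0.49 for Kcnmb1, 0.23 for Ryr2 and 0.021 for Itpr1 in FeAAD, and to 0.049 for Kcnmb1, 0.14 for Kcnj8 and 0.047 for Ryr2 between FeAAD and FeNonAD. The cause was not tested. Of the wider list 4 were then higher and 1 lower in MaAAD and 7 and 1 in FeAAD.

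Under the study's rule 0 of the 10 genes passed in MaAAD, FeAAD and FeAAD against FeNonAD, since it adds a minimum fold change, and of the wider list 3 were higher and 3 lower in MaAAD and 4 and 1 in FeAAD. With the heart muscle score as a covariate 1 gene passed in FeNonAD and 1 in the sex difference in the NonAD response, both Pln. In MaAAD Pln was then -0.27 and Casq2 -0.19, and in FeAAD 0.42 and 0.22. Without MaCon6, MaAAD7 and FeCon10 they were -0.64 and -0.52 in MaAAD. With only the compared groups 1 gene passed in FeNonAD and 1 in MaCon against FeCon, both Kcnj8, while Ryr2 in FeAAD and Atp2a2 in FeAAD against FeNonAD were lost, for a cause that was not tested.

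With the replicate number as a block, 5 genes passed in MaAAD and 6 in FeAAD, Ryr2 being lost at -0.75 and -0.66, and Pln and Casq2 in MaAAD were -0.32 and -0.30. No comparison had every same-numbered pair correlated over 0.1. The highest mean was 0.16 in MaAAD minus FeAAD, where 3 of 7 pairs were over 0.1. Whether same-numbered libraries share a litter or day was not tested.

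The Kcnmb1 to Kcnma1 difference in FeAAD was 0.51 to 0.55 over pseudocounts. In MaAAD that ratio, 0.01 as reported, was -0.0077 with a pseudocount of 2 and -0.024 without the 3 heart-rich libraries. Leaving out each MaNonAD mouse, its difference in MaNonAD ran from -0.22 to 0.0047, and that of Abcc9 to Kcnj8 between MaAAD and MaNonAD from -0.27 to 0.10. Pln to Atp2a2 in MaAAD was -0.0049 without the 3 libraries, and in FeNonAD it was 0.93 without FeCon replicate 10 (adjusted p = 0.0463 by the exact permutation test, against 0.0513 without all 3). No MaNonAD library decided a call among the 10 genes. Depth limits Casq2 most, with as few as 3 counts in a library.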
